A study of Mus musculus with 8 samples.

Results

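The CCN family comprises secreted matricellular proteins, which sit in the extracellular matrix and influence cells without forming its scaffold. The *Ctgf*, *Cyr61*, *Nov*, *Wisp1* and *Wisp2* genes were selected by symbol from the table of normalised counts of dermal fibroblasts, which gave 5 genes of the 15111 listed. They are now also called *Ccn2*, *Ccn1*, *Ccn3*, *Ccn4* and *Ccn5*. *Wisp3* was not listed and so was not analysed. Fibroblasts were taken from the skin of adult mice fed tamoxifen and were kept for 72 h on fibronectin in a serum replacement medium. TGFβ1FKO mice (Tgfb1fl/fl:Col1a2-CreERT) carry floxed *Tgfb1* alleles and a Cre recombinase that tamoxifen activates, driven by *Col1a2* regulatory sequences. Control mice (Tgfb1fl/fl) carry the same floxed alleles without Cre, and both groups received tamoxifen. Neither group has unmodified *Tgfb1* alleles, and there was no group with Cre and unfloxed alleles. There were 4 libraries per group.

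Most CCN proteins are built from an IGFBP-like domain, a von Willebrand factor type C domain, a thrombospondin type 1 repeat and a C-terminal cystine knot. CCN5, the product of *Wisp2*, lacks the C-terminal domain. They bind integrins, heparan sulfate proteoglycans and growth factors. *Cyr61* and *Ctgf* are immediate early genes and widely used targets of the Hippo effectors YAP and TAZ with TEAD factors. Both are also known to respond to SRF and TGFβ, and CTGF is a classic mediator of fibrosis downstream of TGFβ. *Nov* is often regulated opposite to *Ctgf*, and its product can oppose fibrotic responses. *Wisp1* and *Wisp2* were first described as genes induced by Wnt1.

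All members have 5 exons in their coding transcript on GRCm38 (GENCODE M21). *Cyr61* (ENSMUSG00000028195) lies on chromosome 3 from 145646976 to 145649981 on the minus strand and encodes 379 codons. *Ctgf* (ENSMUSG00000019997) lies on chromosome 10 from 24595442 to 24598683 on the plus strand and encodes 348 codons. *Nov* (ENSMUSG00000037362) and *Wisp1* (ENSMUSG00000005124) are both on the plus strand of chromosome 15. *Nov* spans 54745702 to 54754039 and encodes 354 codons, and *Wisp1* spans 66891320 to 66923201 and encodes 367 codons. *Wisp2* (ENSMUSG00000027656), on the plus strand of chromosome 2 from 163820861 to 163833146, encodes 251 codons, the fewest of the 5. *Ctgf* overlaps *Gm15270*, an antisense transcript, with which 17.2% of the 50-base windows of its exons are shared. As the libraries were not directional, reads of these overlapping stretches cannot be assigned to a strand. For *Nov*, 1.13% of windows recur in other genes, and for *Cyr61*, *Wisp1* and *Wisp2* none do.

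The promoter of *Cyr61*, a textbook target of TEAD factors, is shown because it was the only promoter of a member available. The RefSeq promoter table used here matched 1 of the 5 members, and the 250 bases before the start site of this gene are at chr3:145649986-145650235 of GRCm38.p6, minus strand. Capitals mark the match to the TEAD motif.

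Cyr61 promoter: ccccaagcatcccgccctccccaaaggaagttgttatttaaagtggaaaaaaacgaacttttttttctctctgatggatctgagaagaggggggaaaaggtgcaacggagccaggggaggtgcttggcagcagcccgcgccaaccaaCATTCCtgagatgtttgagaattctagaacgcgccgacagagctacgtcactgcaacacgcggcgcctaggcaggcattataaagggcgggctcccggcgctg

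The motif CATTCC begins 103 bases before the start site. CATTCC or its reverse complement GGAATG was present in 14.7% of 32851 RefSeq promoter windows of 300 bases, each with 250 bases before and 50 after a start site. The SMAD motif (CAGACA or TGTCTG), present in 21.0% of windows, was not found in the *Cyr61* window on either strand. The SMAD palindrome GTCTAGAC (0.213% of windows), the TCF/LEF motif CTTTGAT or ATCAAAG (3.73%), the AP-1 motif TGANTCA (7.81%) and the CArG box of SRF (1.63%) were not found there either. The motifs do not overlap in the window, as only 1 match was present. These matches describe letters in this window and were not tested against any measurement.

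Reads on listed genes summed to between 16988998 and 21806579 in controls and between 17445002 and 23071528 in TGFβ1FKO libraries. Reads per member ranged from 1259 for *Nov* in TGFβ1FKO replicate 2 to 13927 for *Cyr61* in control replicate 1, and counting error alone amounts to 0.912% of the mean for *Cyr61* and 2.29% for *Nov* (PCR reads are not independent molecules, so this is a lower limit). The groups were compared with limma on log2(normalised count + 1) over all 15111 genes. Genes were called at an adjusted p-value under 0.05 together with an absolute log2 fold change over 0.6. Neither the labels nor the methods state that each library came from a separate mouse, so that p-values measure the spread between libraries, which may be technical.

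*Tgfb1*, the deleted gene, had normalised counts of 1401, 1298, 1483 and 1314 in control replicates 1 to 4 and of 326, 260, 228 and 295 in TGFβ1FKO replicates 1 to 4. The groups did not overlap. The mean was 1374 ± 85.4 (SD, n = 4) in controls and 277 ± 42.5 (SD, n = 4) in TGFβ1FKO fibroblasts, or 20.2% of control, and limma called the gene (log2 fold change -2.31, SE 0.10, adjusted p = 1.53e-07). All 9 fibroblast markers examined, among them *Col1a1*, *Pdgfra* and *Dcn*, were listed, and 0 of them reached an unadjusted p-value under 0.05. In bulk cultures, fewer cells of a type and less RNA per cell cannot be told apart.

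None of the 5 CCN members was called, whereas 0.086% of all genes were (13 of 15111, 12 lower and 1 higher in TGFβ1FKO). At an unadjusted limma p-value under 0.05 there was 1 member, *Nov*, which was lower. For all genes this share was 7.46%, with 3.87% lower and 3.59% higher in TGFβ1FKO. The control and TGFβ1FKO libraries overlapped for all 5 members, and they did not overlap for 3.79% of all genes. By the fitted means 3 members were lower (*Ctgf*, *Nov*, *Wisp2*) and 2 were higher (*Cyr61*, *Wisp1*). Over all genes 50.9% were higher, with a median log2 fold change of 0.00.

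**Figure D1:**
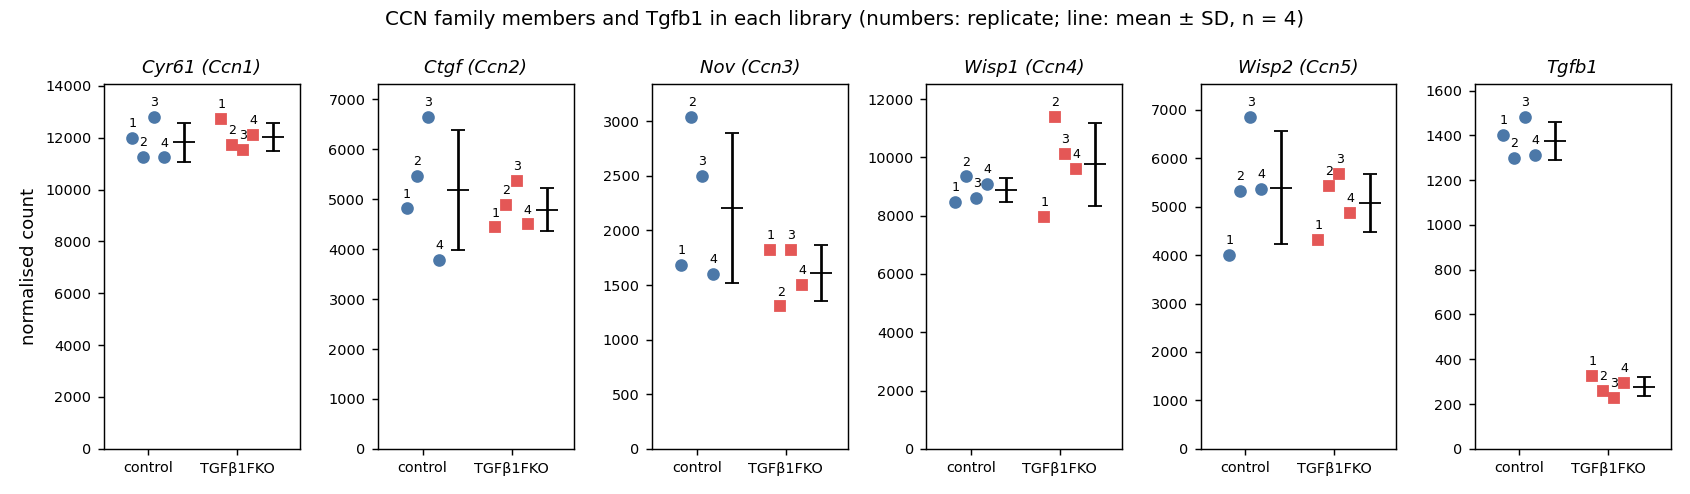
Normalised counts (y axes, from 0) of the CCN members and *Tgfb1* in control (circles) and TGFβ1FKO (squares) libraries, numbered by replicate, with the mean ± SD (n = 4) beside them. The groups overlap for each CCN member, whereas *Tgfb1* lies between 1298 and 1483 in controls and between 228 and 326 in TGFβ1FKO.

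*Cyr61* encodes CCN1, an integrin ligand that supports adhesion and angiogenesis and can induce senescence of fibroblasts. Its normalised counts were 11981, 11255, 12804 and 11241 in controls and 12735, 11709, 11533 and 12109 in TGFβ1FKO libraries. Every TGFβ1FKO value lay within the range of the controls. The means were 11820 ± 741 and 12021 ± 533 (SD, n = 4 each). The log2 fold change was 0.03 (SE 0.06, limma adjusted p = 0.946, exact two-sided permutation p = 0.629). Its 95% interval of -0.10 to 0.15 corresponds to 0.932 to 1.11 times the control level, the narrowest interval of the family.

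*Ctgf* encodes CCN2, which promotes matrix production and is a marker of fibrotic activation. Its normalised counts were 4815, 5462, 6650 and 3777 in controls and 4434, 4883, 5361 and 4496 in TGFβ1FKO libraries. Both the highest and the lowest value belonged to controls, replicates 3 and 4, and the TGFβ1FKO libraries lay between them. The means were 5176 ± 1203 and 4793 ± 427 (SD, n = 4 each). The log2 fold change of -0.09 (SE 0.13, 95% interval -0.37 to 0.20, or 0.772 to 1.15 times control) did not pass limma's test (adjusted p = 0.914) or the exact permutation test (p = 0.629). Without control replicate 3 the difference changed sign to 0.05, and without control replicate 4 it was -0.23 (limma unadjusted p = 0.0396, adjusted p = 0.496).

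*Nov* encodes CCN3, a modulator of cell adhesion and Notch signalling. Its normalised counts were 1684, 3041, 2500 and 1602 in controls and 1825, 1304, 1823 and 1505 in TGFβ1FKO libraries. Control replicates 2 and 3 stood highest, and 2 TGFβ1FKO libraries lay below the lowest control. TGFβ1FKO replicates 1 and 3 lay above control replicates 1 and 4 and below control replicates 2 and 3. The mean was 2207 ± 688 in controls and 1614 ± 256 in TGFβ1FKO (SD, n = 4 each), or 73.1% of control, the largest difference in the family. The log2 fold change was -0.41 (SE 0.18, 95% interval -0.80 to -0.02). It had an unadjusted limma p-value of 0.0395 and an adjusted p-value of 0.655, and the exact permutation test gave p = 0.229, where 4 libraries against 4 allow no p-value below 0.0286. The difference kept its sign when each library was left out in turn. It ran from -0.55 without control replicate 4 (limma unadjusted p = 0.00696, adjusted p = 0.365) to -0.24 without control replicate 2. The unadjusted limma p-value was above 0.05 in 4 of these 8 fits, at 0.143 without control replicate 2, 0.112 without control replicate 3, 0.112 without TGFβ1FKO replicate 2 and 0.0865 without TGFβ1FKO replicate 4.

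Markers of other cell types also differed between these libraries. All 6 Schwann cell markers examined were listed, and limma called 2 of them (*Sox10* and *Foxd3*), each lower in TGFβ1FKO. *Foxd3*, with a mean of 6.22 normalised counts in TGFβ1FKO, and *S100b* had means under 50 over all libraries. The summed normalised counts of the 6 were 588, 757, 910.4 and 426 in controls and 285, 198, 243 and 234 in TGFβ1FKO libraries, without overlap. Among the controls these sums rank the replicates as *Ctgf* does, with replicate 3 highest and replicate 4 lowest. Of 6 pericyte markers 5 were listed, with *Rgs5* and *Abcc9* at a mean under 50 normalised counts. The sums of the 5 were 787, 1295, 1277 and 770 in controls and 641, 825, 883 and 764 in TGFβ1FKO. Among the controls they rank the replicates as *Nov* does, with replicates 2 and 3 highest. Among the TGFβ1FKO libraries the pairings were others, with the Schwann cell sums in the order of *Nov* and the pericyte sums in the order of *Ctgf* and *Wisp2*. All 7 endothelial markers were listed, with *Pecam1*, *Tie1*, *Emcn* and *Vwf* at a mean under 50 normalised counts. The endothelial sums were 661, 808, 748 and 528 in controls, which also rank the replicates as *Nov* does. In TGFβ1FKO these sums ranged from 509 to 545. The adipocyte sums rank the controls as *Wisp2* does, and the skeletal muscle sums rank the TGFβ1FKO libraries as *Nov* does. These sums rest on 3 of 5 adipocyte and 2 of 6 skeletal muscle markers, and *Des* counts for both skeletal muscle and pericytes. Orders of 4 libraries can match by chance, and no background was computed for these matches. Unlike the Schwann cell sums, the pericyte and endothelial sums overlapped between the groups. So did the sums for keratinocytes, melanocytes, macrophages, skeletal muscle and adipocytes. Their defining genes *Krt5*, *Krt14*, *Dct*, *Tyr*, *Ptprc*, *Adgre1*, *Myod1* and *Adipoq*, and also *Kcnj8* of pericytes, were not listed and so were not analysed. The part of these cell types in the values of *Nov*, *Ctgf* and *Wisp2* was not tested.

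*Wisp1* encodes CCN4, a protein linked to fibroblast proliferation and to fibrosis in several organs. Its normalised counts were 8471, 9347, 8622 and 9092 in controls and 7963, 11390, 10104 and 9600 in TGFβ1FKO libraries. TGFβ1FKO replicates 2, 3 and 4 lay above the highest control, and TGFβ1FKO replicate 1 lay below the lowest. The means were 8883 ± 407 and 9764 ± 1418 (SD, n = 4 each). The log2 fold change of 0.13 (SE 0.09, 95% interval -0.07 to 0.32, or 0.955 to 1.25 times control) did not pass limma's test (adjusted p = 0.776) or the exact permutation test (p = 0.343). It moved most with 2 libraries. Without TGFβ1FKO replicate 1 it was 0.22 (limma unadjusted p = 0.00776, adjusted p = 0.344). Without TGFβ1FKO replicate 2 it was 0.05 (limma unadjusted p = 0.559).

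*Wisp2* encodes CCN5, the member without the C-terminal domain, which can counteract the growth-promoting effects of other CCN proteins. Its normalised counts were 4001, 5329, 6855 and 5366 in controls and 4320, 5434, 5676 and 4869 in TGFβ1FKO libraries. As for *Ctgf*, the TGFβ1FKO libraries lay inside the range of the controls, whose highest value was again replicate 3. The means were 5388 ± 1166 and 5075 ± 606 (SD, n = 4 each). The log2 fold change was -0.07 (SE 0.13, 95% interval -0.35 to 0.22, or 0.782 to 1.16 times control, limma adjusted p = 0.932, exact permutation p = 0.771). Its sign changed without control replicate 3 (0.06) and without TGFβ1FKO replicate 1 (0.01).

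**Figure D2:**
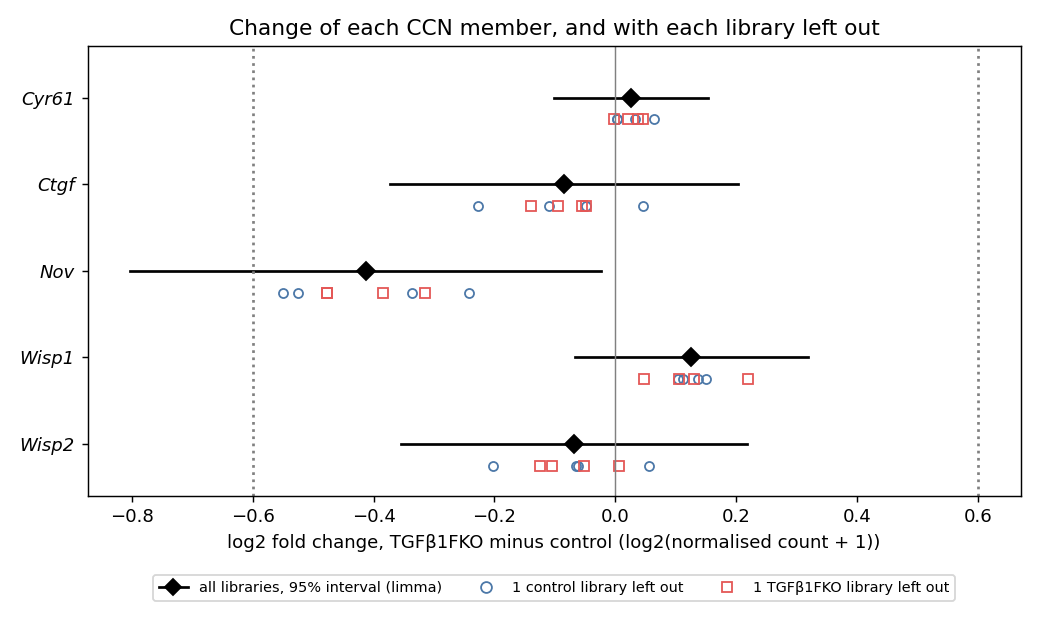
Log2 fold change (TGFβ1FKO minus control, x axis) of each member with its 95% limma interval (diamonds and lines), and below it the value with each control (circles) or TGFβ1FKO library (squares) left out. Dotted lines mark the threshold of 0.6 in each direction; only the interval of *Nov* reaches past it, and only that interval leaves out 0, from -0.80 to -0.02.

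Levels were compared between members per kb of exon, as the union of each gene's exons. *Cyr61* was highest with 5904 normalised counts per kb over all libraries, rank 103 of 15098 genes with a length. *Wisp2* followed with 2719 (rank 287), then *Ctgf* with 1742 (rank 485), *Wisp1* with 1675 (rank 510) and *Nov* with 666 (rank 1406). *Cyr61* was above *Wisp2* in 8 of 8 libraries, with no overlap of their ranges. *Wisp2* was above *Ctgf* within each of the 8 libraries, although the ranges over libraries overlapped. *Ctgf* and *Wisp1* could not be ordered, since *Ctgf* was the higher in 5 of 8 libraries and the mean log2 ratio of 0.05 ± 0.29 (SD, n = 8) was smaller than its spread. *Wisp1* was above *Nov* in 8 of 8 libraries without overlap. The same order resulted with the longest transcript in place of the union of exons.

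**Figure D3:**
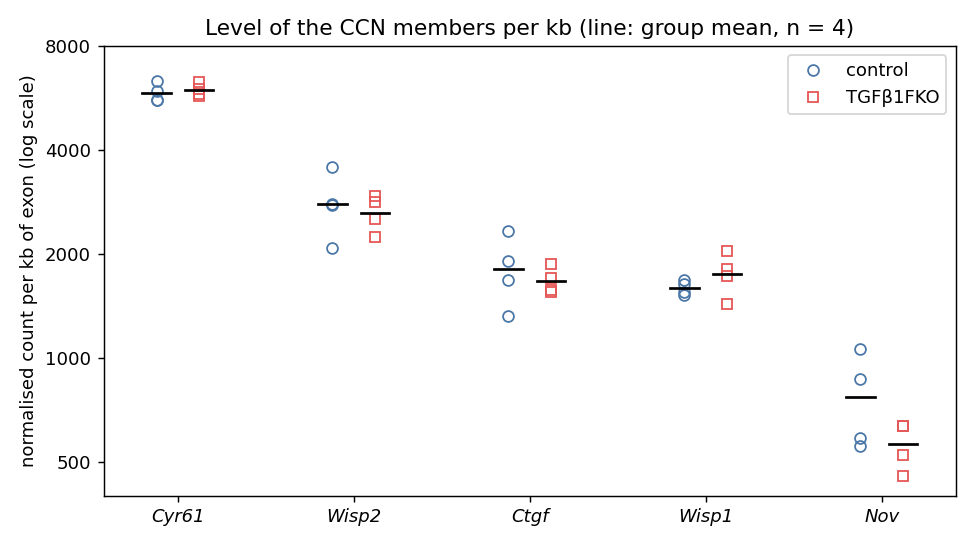
Normalised counts per kb of exon (log axis) of the CCN members in control (circles) and TGFβ1FKO (squares) libraries, with lines at the group means (n = 4). *Cyr61* stands above and *Nov* below the other members in every library, and *Ctgf* and *Wisp1* share their range.

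*Cyr61* made up 46.6% of the normalised counts per kb of the family on average, between 42.9% and 51.8% in single libraries. *Wisp2* accounted for 21.3%, *Ctgf* for 13.6% and *Wisp1* for 13.2%. *Nov* contributed 5.95% in controls and 4.48% in TGFβ1FKO. The sum of the members was 33474 ± 3092 normalised counts in controls and 33268 ± 1639 in TGFβ1FKO (SD, n = 4 each). Of the 10 log2 ratios between pairs of members, that of *Nov* to *Wisp1* differed most between the groups, by -0.54 (exact permutation p = 0.171, Benjamini-Hochberg adjusted p = 0.571 over 10 pairs). No ratio passed, and the lowest p-value was 0.143 for *Ctgf* to *Nov* (exact permutation test).

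The members differed in how much they varied between libraries. The SD of log2 values within groups was 0.08 for *Cyr61*, below the median of 0.09 of 3884 genes whose mean reached 1000 normalised counts. It was 0.36 for *Nov*, 0.26 for *Ctgf*, 0.26 for *Wisp2* and 0.16 for *Wisp1*. Of the 3884 genes, 99.2% had a smaller SD than *Nov*, 97.5% than *Ctgf*, 97.4% than *Wisp2* and 88.4% than *Wisp1*, against 41.2% for *Cyr61*. *Cyr61* therefore lay near the middle of these genes, and *Nov*, *Ctgf* and *Wisp2* near the upper end. The coefficient of variation was larger in controls than in TGFβ1FKO for *Ctgf* (23.2% and 8.92%), *Nov* (31.2% and 15.8%), *Wisp2* (21.6% and 11.9%) and *Cyr61* (6.27% and 4.44%). For *Wisp1* it was larger in TGFβ1FKO (4.58% and 14.5%). Among the 3884 genes, 64.3% had a larger coefficient of variation in controls.

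**Figure D4:**
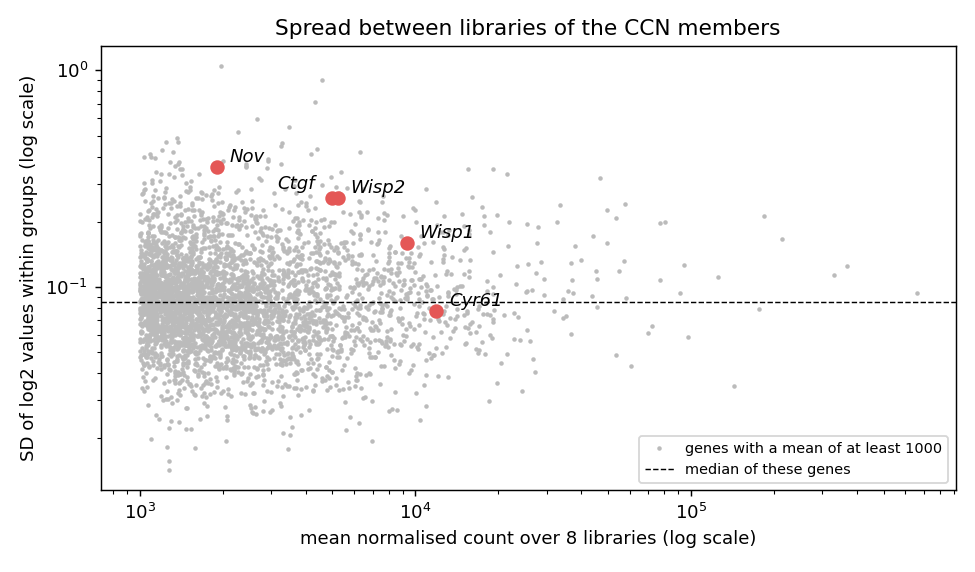
SD of log2 values within groups against the mean normalised count over 8 libraries (both axes log) for 3884 genes with a mean of at least 1000 (grey) and the CCN members (red), with the median of these genes dashed. *Nov*, *Ctgf*, *Wisp2* and *Wisp1* lie above the median and *Cyr61* just below it.

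Correlations between members over the 8 libraries were computed for 10 pairs. The highest were those of *Ctgf* with *Nov* (Pearson r = 0.63, exact permutation p = 0.0979; Spearman rho = 0.52, exact permutation p = 0.197) and of *Ctgf* with *Wisp2* (r = 0.59, exact permutation p = 0.118; rho = 0.57, exact permutation p = 0.151). Without control replicates 3 and 4, farthest from the median of *Ctgf*, r was 0.60 and 0.64. *Cyr61* and *Wisp1* had r = -0.53 (exact permutation p = 0.177; rho = -0.43, exact permutation p = 0.299), which was -0.02 without control replicate 3 and TGFβ1FKO replicate 1. No pair passed after Benjamini-Hochberg adjustment over the 10 pairs, where the lowest adjusted p-value (exact permutation) was 0.588 for r and 0.598 for rho. The 8 points include both genotypes and share their size factors.

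Among 11561 genes whose mean reached 50 normalised counts, those most like each member over the 8 libraries were named by Pearson's r as a description. *Nov* was most like *Cthrc1* (r = 0.983), which encodes a secreted collagen triple helix repeat protein, *Gm1821* (0.977) and *Kcnab1* (0.968). *Ctgf* was most like *Ndn* (0.968), *Itga6* (0.965), which encodes an integrin subunit that binds CCN proteins, and *Uchl1* (0.960). *Wisp1* was most like *Ptpn4* (0.990), *Dmd* (0.977) and *Slc16a7* (0.968). For *Wisp2* these genes were *Hars2* (0.962), *Rap1gap2* (0.934) and *Clcc1* (0.917), and for *Cyr61* they were *Rpl6l* (0.967), *Galk1* (0.966) and *Mrpl58* (0.951). Each r rests on 8 points and is among the 3 highest of 11561, and none of these 15 genes is a CCN member.

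The genes that regulate, receive or resemble CCN proteins were examined in 10 lists, of which 136 genes were in the table and 5 were on more than 1 list. None of the 136 was called (limma, lowest adjusted p = 0.455), and the genes counted under a threshold are those at an unadjusted limma p-value under 0.05. Over all genes 50.9% were higher in TGFβ1FKO, the median log2 fold change was 0.00, and 3.87% were lower and 3.59% higher at that p-value. The lists were not compared with each other or with other genes by a test. Of 20 targets of YAP and TAZ, the effectors that also drive *Cyr61* and *Ctgf*, 13 were higher and 7 lower in TGFβ1FKO, with a median log2 fold change of 0.09. Under the unadjusted threshold 4 were higher and 1 was lower. *Igfbp3*, an IGF-binding protein, went from 225 ± 45.2 to 150 ± 43.6 normalised counts (SD, n = 4 each), a log2 fold change of -0.61 with groups that overlapped. *Crim1* (0.22), a regulator of BMP signalling, and *Ptpn14* (0.30), a phosphatase that restrains YAP, were higher. The Hippo pathway and TEAD factors themselves had a median of 0.09, with 16 of 18 higher, and 2 under the threshold, *Mob1b* (0.21), a coactivator of LATS kinases, and *Tead1* (0.16).

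SRF and MRTF with their cytoskeletal targets, which respond to actin assembly as *Cyr61* and *Ctgf* do, had a median of 0.13 with 16 of 18 higher, and 4 of them were higher under the unadjusted threshold. *Flna*, which encodes the actin cross-linker filamin A, ranged from 29810 to 34140 in controls and from 34320 to 40110 in TGFβ1FKO without overlap (log2 fold change 0.24, limma adjusted p = 0.455). *Cnn1* (calponin, 0.42) and *Vcl* (vinculin, 0.19) had overlapping groups. Of 15 immediate early genes 11 were higher, the median was 0.06, and 1, *Myc* (0.14), was under the threshold.

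Of 20 targets of TGFβ and SMADs, 14 were lower, with a median of -0.04, and 4 were lower and 0 higher under the unadjusted threshold. *Postn*, which encodes the matricellular protein periostin, had means of 89670 ± 5325 and 70840 ± 12480 (SD, n = 4 each, log2 fold change -0.36, limma adjusted p = 0.536), with overlapping groups. *Pmepa1*, a feedback inhibitor of TGFβ signalling, ranged from 3436 to 3810 in controls and from 3001 to 3384 in TGFβ1FKO without overlap (-0.16, limma adjusted p = 0.566), and *Id3*, a target of BMP and TGFβ signals, had -0.35. Of the other TGFβ ligands, receptors and SMADs, 5 of 10 were lower, with a median of 0.00 and 0 under the threshold.

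Of 15 Wnt and β-catenin targets, the pathway that gave *Wisp1* and *Wisp2* their names, 11 were in the table, 6 of them higher, with a median of 0.13. The 3 under the threshold were higher: *Ccnd1* (cyclin D1, 0.41), *Lgr5* (a receptor for R-spondins, 0.42) and *Myc*. Of the 11 genes, 5 were lower, the lowest at -0.60, and 0 of these lower genes were under the threshold. Of 13 CCN receptors and co-receptors 11 were listed, 8 of them higher, with a median of 0.10 and 0 under the threshold. Of 10 growth factors and matrix proteins that CCN proteins bind, 9 were listed and 8 of these were lower (median -0.05), with *Igf1* lower (-0.24) and *Hspg2*, which encodes perlecan, higher (0.26) under the threshold. Of 12 proteins with an IGFBP domain outside the family 9 were listed (5 higher, median 0.06), and *Igfbp3*, *Crim1* and *Igfbp5* (0.41) were under the threshold. With TMM scaling, which moved the median of all genes by less than 0.01, each list median kept its sign.

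**Figure D5:**
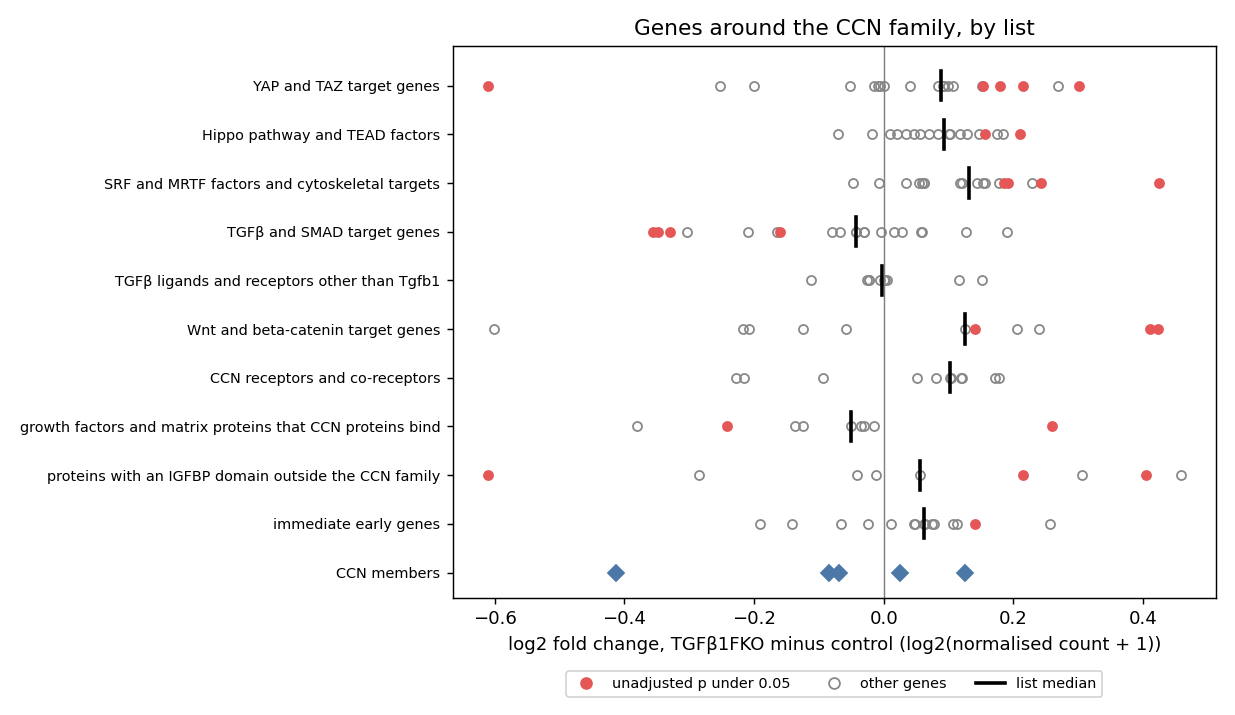
Log2 fold change (TGFβ1FKO minus control, x axis) of each gene of the 10 lists and of the CCN members (diamonds), with genes at an unadjusted limma p-value under 0.05 in red and list medians as bars. The medians lie between -0.05 (growth factors and matrix proteins that CCN proteins bind) and 0.13 (SRF and MRTF with their targets), and the members between -0.41 and 0.13.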

How the data were processed

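RNA of 4 control and 4 TGFβ1FKO libraries was sequenced in paired-end mode. Per the labels, the submitters' processing notes name HISAT2 2.0.5, featureCounts 1.5.0-p3, R 4.3.2 and DESeq2 1.42.0, with GRCm38/mm10. The authors left out genes with low sums of counts (lowest sum found here, 41 reads) and normalised with DESeq2. Each deposited value is a normalised count (signal, at least 0), in which the authors scaled the read count of a gene by the size factor of its library and 0.5 was added. The values gave whole reads (100% within 0.1 read) once 0.5 was subtracted. The table also holds fold changes, standard errors, test statistics and p-values of the authors' own comparison, which were not used.

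A pseudocount of 1 was added, and log2 values were fitted with limma 3.58.1 (R 4.3.3, mean-variance trend) and Benjamini-Hochberg adjustment over 15111 genes, which understates changes of low genes. On simulated counts for 15111 genes, 200 of them changed, the test called 100% at log2 changes of 1 and of 2, with 3 false calls. The changed genes had means over 100 and a spread smoothed over genes of like level. The largest change of a member was -0.41 (*Nov*), so the simulation does not give the power for the members. Every pair of libraries within a group differed by more than sampling noise (lowest chi-square over its degrees of freedom, 4.89). Exact permutation tests were two-sided. Exon lengths were from GENCODE M21 (15098 genes) and promoters from RefSeq.

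The members and lists were chosen with earlier results of these data known. Named genes are the members, *Tgfb1*, up to 3 genes per list with the smallest p-values and the 3 genes most like each member. Alternatives covered TMM scaling, a filter on reads, pseudocounts, thresholds, a replicate block and each library left out. Count-based tests on the recovered reads were planned but not run, so limma is the only test across all genes. Protein sequences were not compared. Some genes of the Schwann cell list are not reported here and were left out of its sums.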

Additional observations from a re-analysis of the deposited data

How the results depend on the processing

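No CCN member was called under any of the 15 alternatives. The number of genes called over the whole table was 13, and it was 3 with at least 10 reads in every library, 25 at an adjusted p-value under 0.1, 5 at one under 0.01, and 5 to 32 with 1 library left out, the lowest without control replicate 3, TGFβ1FKO replicate 2 or TGFβ1FKO replicate 4 and the highest without control replicate 4. With the replicate number as a block it was 31. Whether the numbers pair the libraries was not settled, as a correlation over all genes cannot exclude pairing. Deviations from the group means correlated at 0.16, -0.13, 0.05 and 0.16 for numbers 1 to 4 over 11561 genes. Of the 4, 0 matched best with its own number. The block changed no call of a member, but it changed the SE of their log2 fold changes. The SE fell from 0.1322 to 0.06713 for *Wisp2* and from 0.1326 to 0.07982 for *Ctgf*. It also fell from 0.08897 to 0.06835 for *Wisp1* and from 0.1799 to 0.1615 for *Nov*. For *Cyr61* it rose from 0.05866 to 0.06259.

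*Nov* stayed lower and *Wisp1* higher under all 15 alternatives. The other p-value thresholds reuse the main fit and the block leaves the estimates unchanged, so neither could change a sign. With a library left out, the log2 fold change reversed for *Cyr61* (-0.0027 to 0.0645), *Ctgf* (-0.227 to 0.0454) and *Wisp2* (-0.203 to 0.056). Scaling, filter, pseudocounts and block moved no member by more than 0.01. Correlations were also computed without the 2 libraries farthest from the median of the first gene of a pair. These were control replicate 3 and TGFβ1FKO replicate 1 for *Cyr61*, and control replicates 2 and 3 for *Nov*. Without them r went from 0.04 to -0.54 for *Cyr61* with *Nov* and from 0.36 to -0.32 for *Nov* with *Wisp2*. No other pair changed sign, but r went from -0.03 to -0.64 for *Cyr61* with *Wisp2* and from -0.39 to -0.71 for *Nov* with *Wisp1*. The cause was not tested. The planned count-based tests were not run. Each member had at least 1259 reads in each library.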
